A study of Mus musculus with 6 samples.

Results

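The 10 genes described here belong to the glucocorticoid pathway and were followed in whole kidneys of mice. They are the receptors Nr3c1 and Nr3c2, the steroid-converting enzymes Hsd11b1 and Hsd11b2, and the responsive genes Klf15, Tsc22d3, Arrdc2, Fkbp5, Sgk1 and Zbtb16. They were found by symbol among 57180 listed genes, and all 10 were among the 18092 that passed the count filter. The list was drawn up by pathway membership, and some genes were selected on higher read counts in the nanoplastic group, so the levels by group are a description with no test. The kidneys came from 6 male wildtype C57BL/6J mice, purchased at 7 weeks of age. The vehicle group (3 mice, 0 mg/kg) received deionized water, and the nanoplastic group (3 mice, 200 mg/kg) received cationic polystyrene nanoparticles by mouth once daily for 6 weeks. Each kidney gave 1 RNA-seq library of 19408534 to 26292760 expected counts.

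Glucocorticoids enter cells freely and bind the glucocorticoid receptor (encoded by Nr3c1), which HSP90 and its co-chaperones hold in a ligand-ready state in the cytosol. The bound receptor moves to the nucleus and turns on genes near its response elements. In the kidney the mineralocorticoid receptor (Nr3c2) binds the same steroids, and the enzyme encoded by Hsd11b2 inactivates glucocorticoid in aldosterone-responsive distal cells, while the enzyme encoded by Hsd11b1 regenerates active hormone. Circulating glucocorticoid follows a daily rhythm, and several of its target genes are also outputs of the circadian clock. The sources used here do not state the hour at which kidneys were collected.

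Promoter sequences were matched by symbol for 7 of the 10 genes in a RefSeq table on GRCm38.p6, which holds 250 bases before to 50 bases after each start site. Nr3c1, Hsd11b2 and Zbtb16 were not matched. Searched on both strands were the palindromic receptor element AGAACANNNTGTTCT, its relaxed form GNACANNNTGTNC, its single arm TGTTCT and the clock-factor E-box CACGTG. The palindrome consists of 2 arms and matches all of the first 3 motifs, and the E-box was added after the sequences were seen. The windows of Sgk1, Klf15, Tsc22d3 and Arrdc2 are shown because Sgk1 alone of the matched genes held the palindrome, and because the other 3 had the most separated levels between the groups. Capitals mark matches to the element, its single arm or the E-box.
Sgk1, chr10:21993640-21993939 (plus strand): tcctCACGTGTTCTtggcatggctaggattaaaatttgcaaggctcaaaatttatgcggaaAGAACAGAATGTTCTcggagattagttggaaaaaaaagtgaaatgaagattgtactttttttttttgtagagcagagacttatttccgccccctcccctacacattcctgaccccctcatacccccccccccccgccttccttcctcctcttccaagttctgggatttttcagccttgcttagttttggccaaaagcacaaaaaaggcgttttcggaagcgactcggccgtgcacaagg
Klf15, chr6:90462326-90462625 (plus strand): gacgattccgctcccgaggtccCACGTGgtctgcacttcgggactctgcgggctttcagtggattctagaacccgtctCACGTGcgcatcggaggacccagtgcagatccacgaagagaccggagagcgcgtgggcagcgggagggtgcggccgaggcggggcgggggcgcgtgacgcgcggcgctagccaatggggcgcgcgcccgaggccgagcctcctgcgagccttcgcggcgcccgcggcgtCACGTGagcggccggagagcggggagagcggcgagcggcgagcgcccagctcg
Tsc22d3, chrX:140600473-140600772 (minus strand): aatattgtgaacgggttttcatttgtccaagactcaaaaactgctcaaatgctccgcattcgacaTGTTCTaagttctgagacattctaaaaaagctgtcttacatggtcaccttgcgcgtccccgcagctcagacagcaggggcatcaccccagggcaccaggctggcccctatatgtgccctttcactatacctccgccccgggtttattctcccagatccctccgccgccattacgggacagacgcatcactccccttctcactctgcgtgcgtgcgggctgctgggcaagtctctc
Arrdc2, chr8:70839671-70839970 (minus strand): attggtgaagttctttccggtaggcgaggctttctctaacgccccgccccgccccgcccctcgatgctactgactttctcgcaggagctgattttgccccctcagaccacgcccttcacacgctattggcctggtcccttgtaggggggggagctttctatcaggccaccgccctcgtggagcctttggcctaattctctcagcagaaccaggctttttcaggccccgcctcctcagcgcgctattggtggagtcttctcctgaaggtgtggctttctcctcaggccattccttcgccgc

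The palindrome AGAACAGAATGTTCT lay at bases -189 to -175 of 1 of the 6 Sgk1 start sites, and 3 of 32851 promoter windows (0.00913%) held such a match. An E-box at -246 to -241 in that window overlaps another arm at -242 to -237. The Klf15 window held 3 E-boxes, at -228, -172 and -3, and the Fkbp5 window held 1. E-boxes were found in 7.15% of all windows. The Tsc22d3 window shown held 1 arm at -185, and the other 2 Tsc22d3 windows held none. By gene, 2 of the 7 matched genes (Sgk1 and Tsc22d3) had an arm in some window, against 21.3% of all genes. The Arrdc2, Nr3c2 and Hsd11b1 windows held none of the motifs. Of 41 other receptor target genes with a window, 4 (Map3k6, Mt1, Trim63 and Txnip) held the relaxed element, against 0.537% of all genes in the table. Of the same 41, 0 held the palindrome and 5 held an arm, where 21.3% of all genes held one. That list was drawn up from genes known as receptor targets, so its share of receptor elements may not be independent of the choice. No test was run. These matches describe letters and not bound sites, and receptor elements farther away were not searched.

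Some libraries stood apart in markers of other cell types. Levels are in CPM, read counts relative to the TMM-scaled library total. The summed level of 10 adipocyte markers was 79.8 and 234.9 CPM in vehicle 3 and nanoplastic 1, against 32.9 to 41.1 in the other 4. The collecting duct water channel Aqp2 measured 148.5 CPM in nanoplastic 1 and 43.2 to 61.6 CPM in the other libraries. Summed proximal tubule markers ran from 40344 to 42830 CPM in vehicle and from 34529 to 41525 CPM in nanoplastic kidneys, the largest sum of the cell type lists measured. The adrenal enzymes Cyp11b1, Cyp11b2 and Cyp21a1 had 0 counts in every library, and Cyp11a1 had 1 count over the 6 libraries. Of the same adrenal list, Star had 110 to 185 counts per library, Fdx1 1034 to 1347 and Akr1b7 56 to 73. Their groups overlapped, with log2 fold changes of 0.32, -0.00 and -0.04. The adrenal list summed to 60.3 to 63.1 CPM in vehicle and 62.0 to 62.8 CPM in nanoplastic mice. Nanoplastic 1 also had the highest urothelial marker sum, 18.3 CPM against 1.78 to 5.45 CPM. Other markers moved with the treatment groups. The summed macrophage markers ran from 107.9 to 117.5 CPM in vehicle and from 98.2 to 103.9 CPM in nanoplastic mice, and the neutrophil sum from 0.339 to 0.701 and from 0.750 to 1.09 CPM, both without overlap. The neutrophil sum lay near the floor, with 1 of 6 markers past the count filter. Ly6g and Camp had 0 counts in every library, and S100a8 and S100a9 had 1 to 12 per library. The fibroblast collagen genes Col1a1 and Col3a1 were lower in every nanoplastic mouse, with log2 fold changes of -0.69 and -0.72, as were Umod of the thick ascending limb (-0.33) and Itgam of myeloid cells (-0.62). Aqp4 of principal cells was higher in each (1.03). Col1a1, Col3a1, Umod, Itgam and Aqp4 were named after their values were seen. The part of such markers in the levels of the 10 genes was not tested. Beside Umod, Slc12a1, Cldn16, Cldn10 and Egf stood at 0.02, -0.02, -0.11 and -0.05, with overlap. Beside Aqp4, Aqp3 was higher in each nanoplastic mouse (0.24), while the other principal cell markers overlapped, from Aqp2 at 0.65 to Scnn1g at -0.14. Beside the collagens, the other fibroblast and mural markers overlapped, from Tagln at -0.33 to Myh11 at 0.20. The macrophage markers beside Itgam were all negative. So were the 5 erythrocyte markers, from -0.39 for Hba-a1 to -0.59 for Hbb-bt. Hbb-bt and Alas2 did not overlap between the groups, while the erythrocyte sum did. Aqp6 of intercalated cells (0.58) and Slc5a12 of the proximal tubule (0.19) were higher in each nanoplastic mouse, and the other markers of their lists overlapped. These too were named after their values were seen. In whole-kidney RNA, fewer cells of a type and less RNA per cell cannot be told apart.

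Nr3c1, the glucocorticoid receptor, measured 163.8, 163.8 and 169.9 CPM in vehicle mice 1 to 3 and 173.9, 177.6 and 146.8 CPM in nanoplastic mice 1 to 3. Vehicle mice lay close together, and the nanoplastic mice lay on both sides of them. The log2 fold change was 0.00 (SE 0.08), with a 95% interval from -0.17 to 0.17, and its sign turned with the choice of scaling or library. Nr3c2, the mineralocorticoid receptor, measured 34.6, 34.9 and 36.4 CPM in vehicle and 41.1, 37.6 and 37.4 CPM in nanoplastic mice. All 3 nanoplastic values were above all vehicle values, by a small margin (log2 fold change 0.13, SE 0.07). Without nanoplastic 1 the Nr3c2 value was 0.09, and in deposited TPM, which is scaled for transcript length, with a pseudocount of 0.1 it was 0.21. By the GENCODE annotation 1 antisense gene, Gm10649, overlaps exons of Nr3c2, and it had at most 2 counts in a library.

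Hsd11b1, the hormone-regenerating enzyme, measured 179.3, 185.9 and 130.0 CPM in vehicle and 139.5, 198.4 and 150.8 CPM in nanoplastic mice. Its lowest values fell in vehicle 3 and nanoplastic 1, the same libraries that held adipocyte transcripts, and the part of cell content in this was not tested. The group means, 165.1 ± 30.5 and 162.9 ± 31.2 CPM (SD, n = 3 each), differed by less than the spread between mice (log2 fold change -0.02, SE 0.15), and the sign turned to 0.08 without nanoplastic 1. H6pd, which supplies this enzyme with its cofactor, measured 236.0 ± 6.40 and 239.4 ± 19.0 CPM (SD, n = 3 each). Hsd11b2, the inactivating enzyme, measured 10.9, 13.3 and 12.1 CPM in vehicle and 14.0, 13.2 and 13.8 CPM in nanoplastic mice. The groups met at vehicle 2 and nanoplastic 2 (log2 fold change 0.18, SE 0.10). The value was 0.11 without vehicle 1.

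**Figure D1:**
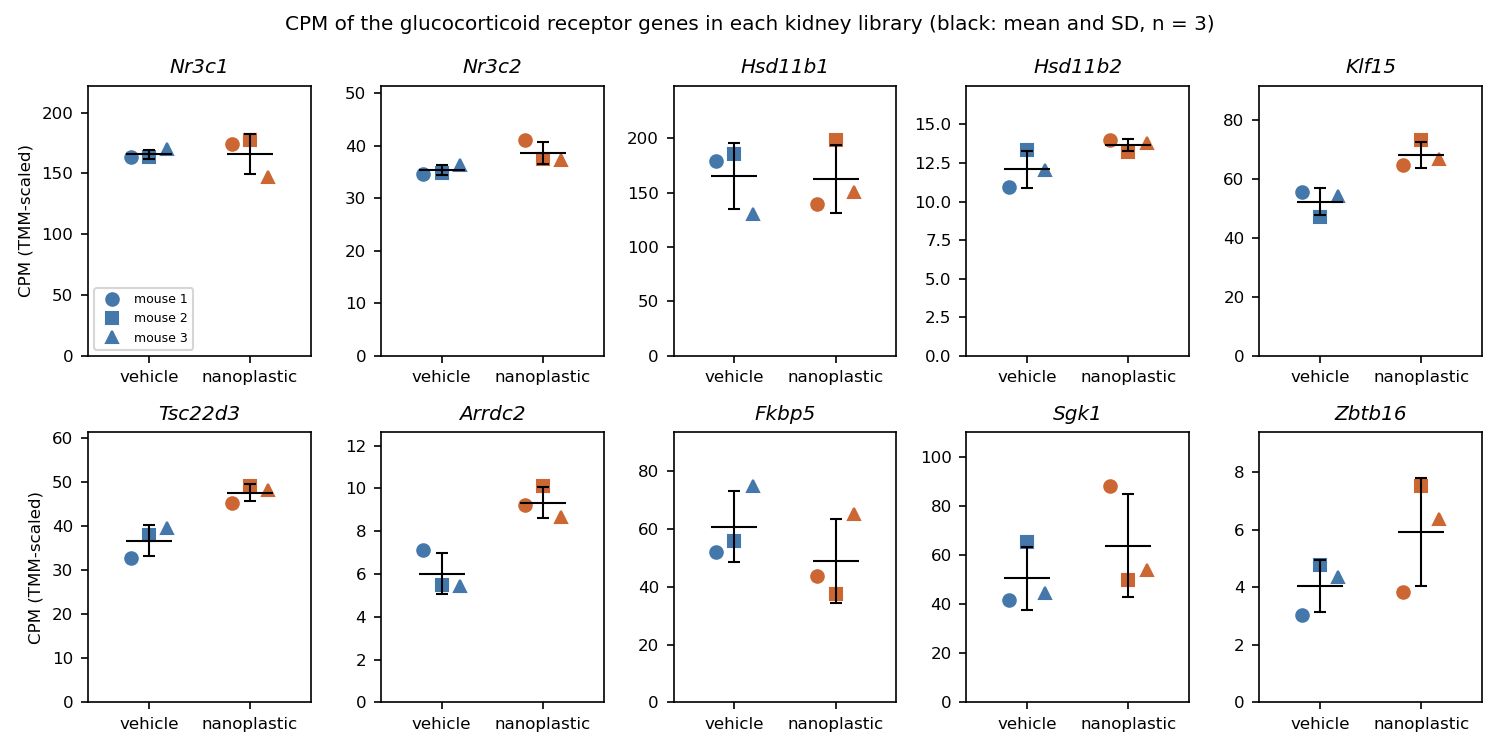
CPM of each of the 10 genes (vertical axes, from 0) in the 3 vehicle and 3 nanoplastic libraries. Points are mice, and black bars are the mean and SD. Klf15, Tsc22d3, Arrdc2 and Nr3c2 have all nanoplastic points above all vehicle points, and the groups overlap in the other 6 genes.

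Among the responsive genes, 3 had groups that did not overlap. Klf15, a transcription factor of amino acid and glucose metabolism, measured 55.5, 47.0 and 54.3 CPM in vehicle and 64.6, 73.2 and 66.8 CPM in nanoplastic mice. The lowest nanoplastic mouse stood above the highest vehicle mouse, and the fold was 1.31 (95% interval 1.15 to 1.48, log2 fold change 0.38, SE 0.08). Tsc22d3, which encodes the anti-inflammatory leucine zipper protein GILZ, measured 32.7, 37.9 and 39.7 CPM in vehicle and 45.4, 49.1 and 48.3 CPM in nanoplastic mice. Here too the groups did not meet, with a fold of 1.29 (95% interval 1.14 to 1.47; log2 fold change 0.37, SE 0.08). Arrdc2, an arrestin-domain protein, measured 7.12, 5.50 and 5.43 CPM in vehicle and 9.25, 10.1 and 8.67 CPM in nanoplastic mice. Its fold, 1.55 (log2 fold change 0.63, SE 0.14, 95% interval 0.32 to 0.94), was the largest of the 10. In vehicle the 3 genes did not share an order of mice, since Arrdc2 and Klf15 were highest in vehicle 1 and Tsc22d3 was lowest there. In nanoplastic mouse 2 each of the 3 had its highest value.

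Fkbp5, a co-chaperone that restrains the receptor and is itself a receptor target, went the other way. It measured 52.0, 55.9 and 74.8 CPM in vehicle and 43.8, 37.6 and 65.3 CPM in nanoplastic mice. Both groups had their highest value in mouse 3, and the groups overlapped (log2 fold change -0.32, SE 0.19). Without vehicle 3 the Fkbp5 value was -0.14, without nanoplastic 3 it was -0.58, and without both vehicle 3 and nanoplastic 1 it was -0.07. Nanoplastic mouse 2 thus had the lowest Fkbp5 and the highest Klf15, Tsc22d3, Arrdc2 and Zbtb16 of the 6 mice.

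Zbtb16, a zinc finger repressor known as PLZF, measured 3.04, 4.76 and 4.37 CPM in vehicle and 3.85, 7.50 and 6.39 CPM in nanoplastic mice. Nanoplastic 2 and 3 lay above every vehicle mouse, and nanoplastic 1 lay among them (log2 fold change 0.54, SE 0.25). Without nanoplastic 2 the Zbtb16 value was 0.31, and without vehicle 3 and nanoplastic 1 it was 0.86. Sgk1, the kinase that keeps sodium channels at the distal cell surface, measured 41.8, 65.5 and 44.7 CPM in vehicle and 88.1, 49.9 and 54.1 CPM in nanoplastic mice. The group difference in Sgk1 (log2 fold change 0.34, SE 0.21) rested on nanoplastic 1, without which it was 0.04. Without both that library and vehicle 3 it turned to -0.04. Nanoplastic 1 also held the highest Aqp2, Aqp4 and urothelial marker levels, and vehicle 2, next in Sgk1, held the highest Fos, at 11.2 CPM against 0.364 to 1.74 CPM elsewhere. The part of either in the Sgk1 value was not tested.

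Taking the 10 genes as a list, 4 were higher in nanoplastic with groups that did not overlap, where 6.54% of all genes were, and 0 were lower in that way, where 6.32% were. The log2 fold change was positive in 8 and negative in 2, with a median of 0.26, against a median of 0.01 over all 18092 genes. Because the list was built partly from this contrast, the counts describe the choice. No gene in the whole table passed the test (edgeR quasi-likelihood, Benjamini-Hochberg adjusted p under 0.05; 0% of genes called; lowest adjusted p = 0.156), so 0 of the 10 did. The unadjusted counts were 689 genes higher and 653 lower. DESeq2 called 0.396% of the genes it adjusted, and 1 of the 10, Klf15. As some of the 10 were picked on this contrast, that call and the intervals of the 10 are a description and no test. In 9 of the 10 the 95% interval lay within a 2-fold change in either direction, and Zbtb16 was the exception. Without vehicle 3 and nanoplastic 1 the median was 0.14, with 6 positive and 4 negative.

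**Figure D2:**
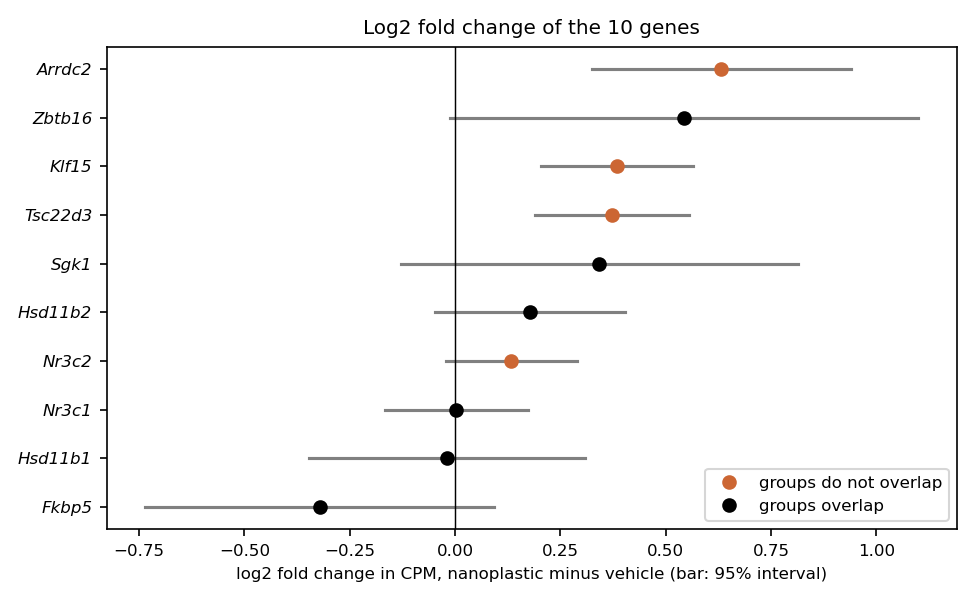
Log2 fold change of each gene (horizontal axis, nanoplastic minus vehicle) with its 95% interval, sorted by size. Orange points mark the 4 genes whose groups do not overlap, and the values run from -0.32 for Fkbp5 to 0.63 for Arrdc2.

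On a per-length scale, in TPM of the vehicle mice, Hsd11b1 stood first at 85.2 ± 11.4 (SD, n = 3). Nr3c1 at 18.4 ± 1.88, Sgk1 at 16.6 ± 3.30, Klf15 at 13.1 ± 1.87, Tsc22d3 at 10.8 ± 1.63 and Fkbp5 at 9.82 ± 2.72 TPM (SD, n = 3 each) formed a group in which each neighbour's range met the next. Nr3c2 at 4.49 ± 0.415, Hsd11b2 at 3.77 ± 0.376, Arrdc2 at 2.08 ± 0.310 and Zbtb16 at 0.687 ± 0.212 TPM (SD, n = 3 each) followed without overlap. Spread between vehicle mice, as the coefficient of variation of CPM, was lowest for the receptor Nr3c1 (2.14%). It was highest for Sgk1 (25.5%), Zbtb16 (22.3%) and Fkbp5 (20.1%).

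The mean transcript length that RSEM reports for a gene shifts when the mix of isoforms shifts, and this readout did not enter the choice of genes. Fkbp5 had lengths of 3372, 3444 and 3370 bases in vehicle and 3350, 2933 and 3095 bases in nanoplastic mice. All nanoplastic lengths were shorter, by 269.3 bases on average, in an exact two-sided permutation test at p = 0.1, the smallest that 3 against 3 allows, and at 0.9 after Benjamini-Hochberg adjustment over 9 genes. Sgk1 had 1760, 1780 and 1703 bases in vehicle and 1669, 2013 and 1908 bases in nanoplastic mice. Its groups overlapped (exact permutation p = 0.4, adjusted 1). Hsd11b2 had the same length, 1840 bases, in every library and was not tested. The other 7 genes had exact p values from 0.2 to 1, and 0 of 9 passed after adjustment.

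Other transcripts of the pathway, in lists drawn up by function, are set beside the 10 genes. None of them passed the test over all genes, so their values are compared with the share of genes at an unadjusted edgeR p under 0.05, which was 3.81% higher and 3.61% lower over the whole table. Chaperones that hold the receptor had 15 of 16 members with a negative log2 fold change, where 48% of all genes were negative, and a median of -0.19. At the unadjusted level 6 were lower and 0 higher. Hsp90aa1, an HSP90 gene, measured 502.8 ± 106 and 359.0 ± 47.2 CPM (SD, n = 3 each), a log2 fold change of -0.49 with SE 0.14 and an edgeR adjusted p of 0.501. Fkbp4, the co-chaperone that competes with the Fkbp5 protein for HSP90, measured 161.1, 186.3 and 163.0 CPM in vehicle and 140.6, 150.8 and 158.2 CPM in nanoplastic mice, with no overlap. Dnaja1, an HSP40 co-chaperone, came to -0.44 (SE 0.16) on the log2 scale and Hsp90ab1, the other cytosolic HSP90, to -0.24 (SE 0.09). Vehicle 2 had the highest Hsp90aa1, Dnaja1, Dnajb1 and Hspa8 of the 6 libraries, and without it the median was -0.13 and 1 of the 16 was lower at the unadjusted level. That number was also 1 without vehicle 3 and nanoplastic 1, 2 without nanoplastic 1 or in TPM, and 10 without nanoplastic 3.

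Receptor coregulators lay near 0, with 4 positive and 11 negative of 15 and a median of -0.03. Under library-size scaling or in TPM the split was 10 positive and 5 negative. Nrip1, a corepressor, was lower at the unadjusted level (log2 fold change -0.20, SE 0.08, edgeR adjusted p = 0.631). On the same scale the corepressor Ncor1 stood at -0.03 and the coactivators Ncoa3 and Ncoa2 at -0.07 and 0.05.

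Of 46 other receptor target genes 43 were measured, 27 positive and 16 negative, with a median of 0.08. Without nanoplastic 2 the median was 0.01, with 23 positive and 20 negative. At the unadjusted level 2 were higher and 1 lower, and without vehicle 3 and nanoplastic 1 these were 6 and 3. Igfbp1, a binder of insulin-like growth factors, measured 4.59, 2.38 and 3.82 CPM in vehicle and 6.53, 11.1 and 4.93 CPM in nanoplastic mice (log2 fold change 1.07, SE 0.30, edgeR adjusted p = 0.501). Its groups did not overlap, as with Cebpb, a transcription factor (log2 fold change 0.50, SE 0.18). Bcl6, a repressor, measured 16.2, 47.1 and 43.7 CPM in vehicle and 23.0, 4.96 and 7.79 CPM in nanoplastic mice (log2 fold change -1.55, SE 0.49). Nanoplastic 2 and 3 were the lowest in Bcl6 and the highest in Zbtb16. The quickly responding Per1, Dusp1 and Errfi1 came to 0.18 (SE 0.30), 0.13 (SE 0.32) and 0.16 (SE 0.11) on the log2 fold scale. These moved with the setting: Per1 was 0.83 in TPM with a pseudocount of 0.1 and -0.09 without vehicle 1, and Dusp1 was 0.27 in limma-voom, 0.71 without vehicle 2 and -0.13 without vehicle 1. Errfi1 ran from 0.09 without vehicle 1 to 0.30 without vehicle 2. The gluconeogenic targets Pck1 and G6pc measured -0.25 (SE 0.18) and -0.08 (SE 0.10) on the same scale.

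Steroid handling split evenly, with 9 positive and 9 negative of 18 measured genes, though 13 and 5 under library-size scaling or in TPM. At the unadjusted level 4 were higher and 2 lower. The efflux pumps Abcb1a and Abcb1b, which export glucocorticoids among other substrates, were both higher in every nanoplastic mouse. Abcb1b measured 6.62, 5.72 and 7.26 CPM in vehicle and 10.6, 9.42 and 10.1 CPM in nanoplastic mice, and Abcb1a had means of 6.00 ± 0.997 and 8.63 ± 1.26 CPM (SD, n = 3 each). They are close paralogs, so the division of reads between them is uncertain. Srd5a1, a steroid reductase, measured 17.5 ± 2.29 and 22.5 ± 0.749 CPM (SD, n = 3 each). In these 3 genes the groups did not overlap, at edgeR adjusted p values of 0.311 for Abcb1b, 0.515 for Abcb1a and 0.501 for Srd5a1. Serpina6, the plasma carrier of corticosteroids, had 1 count over the vehicle mice and 5 over the nanoplastic mice. Of 17 aldosterone-sensitive transport genes 7 were positive and 10 negative, 0 passed even at the unadjusted level, and in each gene the groups overlapped. The split was 12 and 5 under library-size scaling and 14 and 3 in TPM, and without vehicle 3 and nanoplastic 1 it was 13 and 4 with 5 higher at the unadjusted level. The sodium channel subunit Scnn1g had a log2 fold change of -0.14 (SE 0.07) and the sodium-chloride cotransporter Slc12a3 one of 0.06 (SE 0.15).

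**Figure D3:**
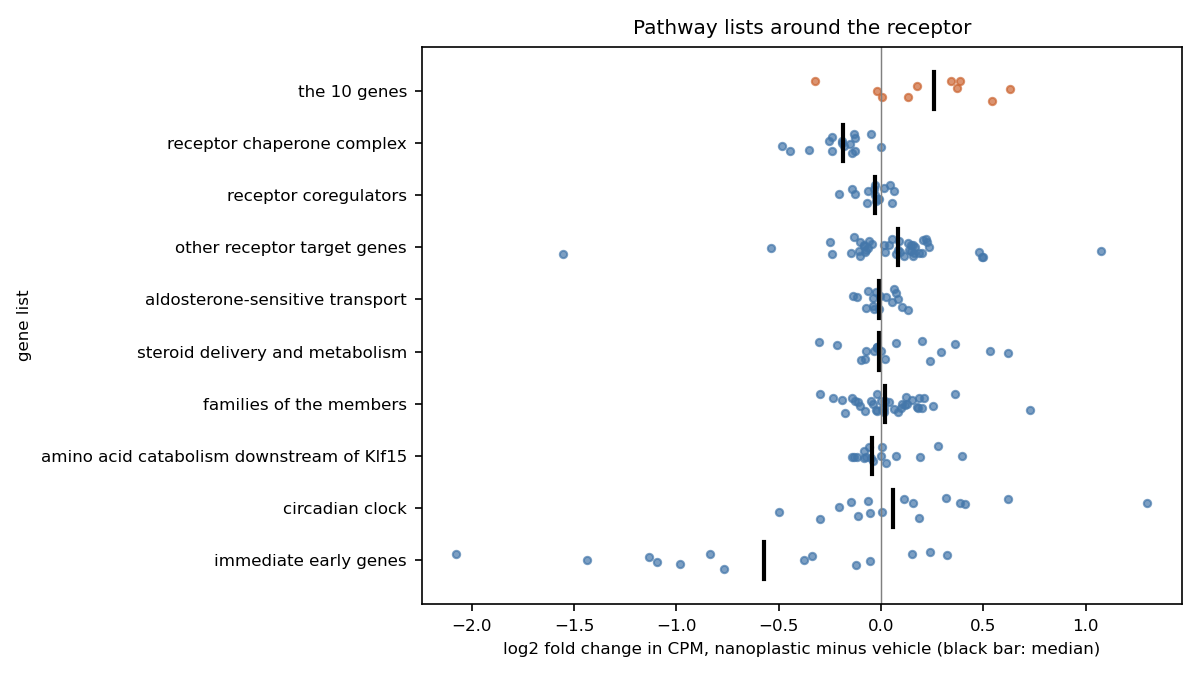
Log2 fold change (horizontal axis, nanoplastic minus vehicle) of every measured gene in the 10-gene set (orange) and in the 9 lists around it (blue). Points are genes, spread vertically for sight only, and black bars are medians, from -0.57 for immediate early genes to 0.26 for the 10 genes.

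Clock genes are given because the hormone and several of its targets follow a daily rhythm. Dbp, a clock output factor, measured 30.6, 15.3 and 36.3 CPM in vehicle and 40.4, 63.3 and 22.1 CPM in nanoplastic mice. Arntl, the clock activator that peaks in the opposite phase, measured 14.3, 22.9 and 11.5 CPM and 12.7, 6.63 and 15.4 CPM. Vehicle 2 had the lowest Dbp, Tef and Klf15 and the highest Arntl, and nanoplastic 2 had the reverse in all of these. In nanoplastic 1 Dbp, Tef (308.0 CPM) and Klf15 also lay above every vehicle mouse, while Arntl lay within the vehicle range. In nanoplastic 3 Dbp lay below vehicle 1 and 3, and Tef, at 290.8 CPM, lay below vehicle 3 alone. Klf15, Tsc22d3 and Arrdc2 lay above every vehicle mouse there. Ciart, a clock repressor, was higher in all nanoplastic mice, at 1.95, 3.79 and 1.61 CPM against 1.13, 0.779 and 1.10 CPM (edgeR adjusted p = 0.501). Of 16 clock genes 9 were positive and 7 negative, with a median of 0.06 and 3 higher at the unadjusted level (Cry2, Tef and Ciart). That number ran from 1 to 6 as single libraries were left out. Per2, a clock gene and receptor target named after its value was seen, passed the test without vehicle 3 and nanoplastic 1 (log2 fold change 0.96, edgeR adjusted p = 0.0193) and not in the 6 libraries (0.23, adjusted p = 0.884). Those 2 libraries ran against the direction of the rest. From the vehicle mean, log2 Per2 stood at -0.35, -0.41 and 0.76 in vehicle and at -0.32, 0.67 and 0.48 in nanoplastic mice. Its pass thus depended on which mice were left out. The part of clock phase in the levels of the 10 genes was not tested.

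**Figure D4:**
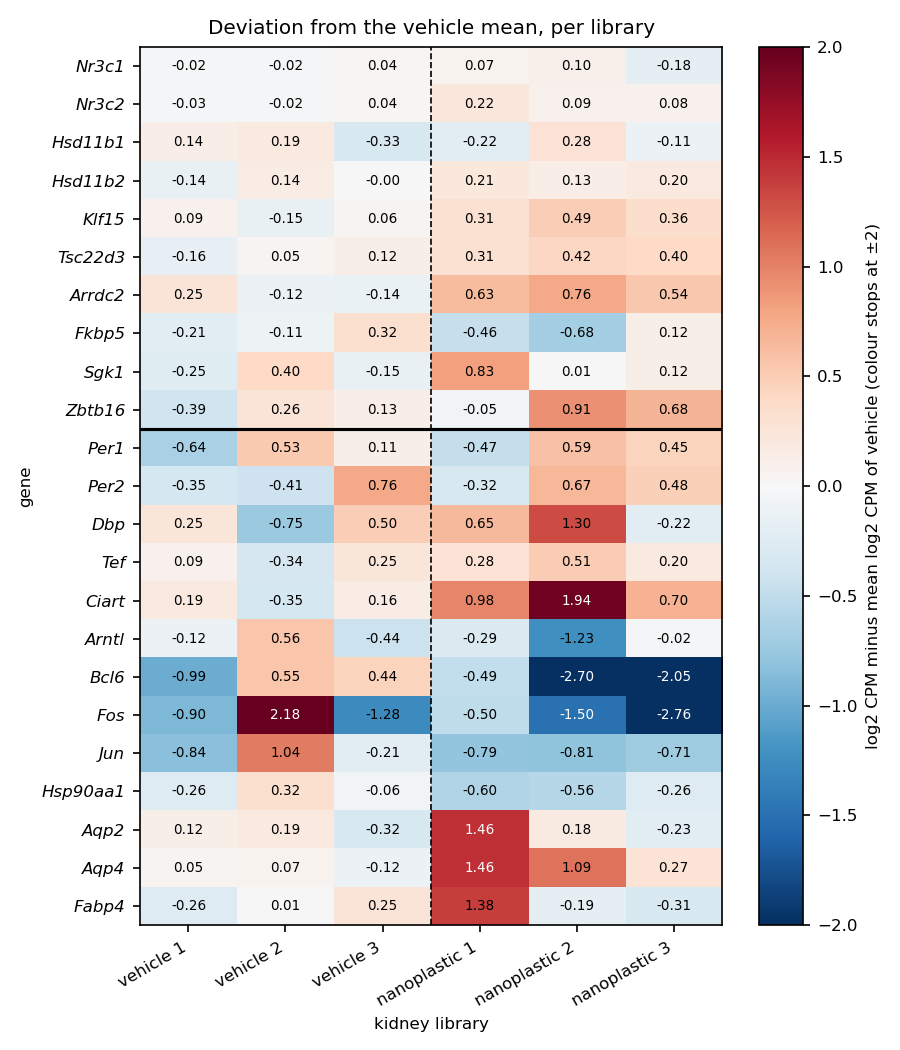
Log2 CPM of each gene minus its mean log2 CPM in vehicle, per library (columns), with the value printed in each cell and colours that stop at ±2. The 10 genes are above the line. Below it are targets, clock, early response, chaperone, collecting duct and adipocyte genes, with Fos at 2.18 in vehicle 2 and Aqp2 at 1.46 in nanoplastic 1.

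Immediate early genes, which respond to handling and tissue stress, had a median of -0.57 over 14 genes, with 3 positive and 11 negative. The value was 0.01 without vehicle 2, and with all libraries it was -0.25 and -0.13 in TPM with pseudocounts of 0.1 and 1. Jun measured 62.0 CPM in vehicle 2 and 16.9 to 26.0 CPM elsewhere. Klf15 was lowest in that library, and without it the log2 fold change of Klf15 was 0.31.

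Genes outside the set whose pattern over the 6 libraries lay nearest to the mean of Klf15, Tsc22d3, Arrdc2, Fkbp5 and Zbtb16 were Zfp128, Cenpl, Bcdin3d, Greb1l and Tstd1. Likeness was the root mean square difference in log2 CPM deviations, which was 0.041 to 0.058 for these 5 and had a median of 0.22 over 12909 genes. Of those 5 target genes Tsc22d3 lay nearest that mean, at 0.074, followed by Klf15 at 0.12. Arrdc2 at 0.26, Zbtb16 at 0.29 and Fkbp5 at 0.41 lay farther from it than the median gene, so the mean does not stand for most of its members. Sgk1 was not part of the mean and lay at 0.40. Greb1l measured 22.9, 24.9 and 25.4 CPM in vehicle and 29.3, 34.1 and 33.6 CPM in nanoplastic mice. The mean of the targets itself stood at -0.24, -0.17 and -0.06 in vehicle and at -0.01, 0.22 and 0.26 in nanoplastic mice. Genes picked for likeness to it are thus higher in nanoplastic by the choice.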

How the data were processed

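RNA of 6 mouse kidneys, 3 per group, was sequenced (Illumina NovaSeq X Plus, as the labels' protocols state). Neither strandedness nor the annotation release is stated in what was used here. The tools were RSEM 1.3.3, STAR 2.7.9a, Trim Galore 0.6.6 and FastQC, on GRCm39, per the submitters' processing notes. The authors deposited 1 RSEM table per library with expected counts, not normalized, and TPM, scaled for length, per the file headers. FPKM was deposited by the authors too and was not used here. RSEM's transcript lengths come from the same deposited tables. In TPM the 7SL RNAs Rn7s1 and Rn7s2 took 55.5% to 59.4%, so TPM of other genes moves with them.

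Symbols came from a GENCODE vM21 table (GRCm38): 51884 genes were named by gene ID, 738 by transcript ID and 4558 not. After rounding, counts passed filterByExpr and TMM scaling, and the groups were compared in edgeR 4.0.16 (glmQLFit, glmQLFTest, no covariate) under R 4.3.3, with Benjamini-Hochberg adjustment. Standard errors are the log2 fold change over the root of F. Alternatives used DESeq2 1.42.0 and limma 3.58.1. The fit was also run on simulated counts with known changes, and the outcome is not given here. The spread of those counts followed the trend with level and not each gene, so that run does not vouch for calls in these libraries. Intervals are at 95% and cover variation between mice and counting error. The labels describe separate mice.

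The 10 genes and the lists were chosen with earlier results of these data known. The text names the 10 genes, and from each list the 3 of highest level and the 3 of largest change at a mean of at least 1 CPM, with Per1, Dusp1, H6pd and Serpina6. Some that this rule takes are not described singly, and a few others are named for single-library values after these were seen. The series design states no pairing of mice by replicate number, and the main fit used none.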

Additional observations from a re-analysis of the deposited data

How the results depend on the processing

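The number of genes called over the whole table was 0 in the edgeR test, with 689 higher and 653 lower at an unadjusted p under 0.05. It was also 0 with the scaling that DESeq2 uses, library-size scaling, no count filter, limma-voom, both TPM settings, and without 7SL and mitochondrial genes. DESeq2 called 55 genes, 20 higher and 35 lower, and Klf15 was among them. For Klf15, from a list built partly on this contrast, the call is a description and no test. Leaving out 1 library gave 0 to 10 calls (10 without nanoplastic 1, 1 each without vehicle 3 or nanoplastic 3), and leaving out vehicle 3 and nanoplastic 1 together gave 30, 14 higher and 16 lower. The cause was not tested. With the replicate number as a block 0 genes were called. Same-numbered deviations correlated at 0.0436, -0.023 and 0.103, and the other pairs ran from -0.122 to 0.0763. With 3 mice per group such values cannot exclude a pairing. Over 16 alternatives the sign was kept in all for Nr3c2, Hsd11b2, Klf15, Tsc22d3, Arrdc2, Fkbp5 and Zbtb16, in 15 for Sgk1, in 9 for Hsd11b1 and in 6 for Nr3c1. Klf15 ranged from 0.31 to 0.45, Tsc22d3 from 0.29 to 0.47 and Arrdc2 from 0.47 to 0.78. Library-size scaling moved the median of all genes from 0.01 to 0.05. In TPM that median was 0.07 with a pseudocount of 0.1 and 0.04 with a pseudocount of 1. The splits of positive and negative genes given for the lists under these settings include this shift of all genes. With 3 mice per group, the interval of Zbtb16, the rarest of the 10, did not exclude a 2-fold change.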

Other observations

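Relatives of the 10 genes were mostly flat. Of 36 measured family members 21 were positive and 15 negative, with a median log2 fold change of 0.02 (26 and 10 under library-size scaling, 27 and 9 in TPM), and 0 passed the edgeR test after adjustment. At the unadjusted level 0 were higher and 1 lower. The lower one was Arrdc4, an arrestin-domain relative of Arrdc2, which measured 20.2, 24.8 and 23.3 CPM in vehicle and 17.1, 19.4 and 19.0 CPM in nanoplastic mice (log2 fold change -0.30, SE 0.10, edgeR adjusted p = 0.552). Arrdc2 and Arrdc4 thus differed in sign, and neither had groups that overlap. Arrdc3 had a log2 fold change of -0.23 (SE 0.14). Among kinases related to Sgk1, Sgk2 and Sgk3 had values of 0.02 (SE 0.07) and -0.02 (SE 0.07), and nanoplastic 1, where Sgk1 was high, was not high in either. Tsc22d1, Tsc22d2 and Tsc22d4 had values of -0.06, -0.02 and 0.12. Klf9, a hormone-responsive relative of Klf15, had one of 0.14 (SE 0.08), and Klf5 reached 3.00 CPM in nanoplastic 1 against 0.364 to 1.13 CPM elsewhere.

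Enzymes of amino acid catabolism, a process that Klf15 is known to regulate, had 7 positive and 9 negative of 16 genes and a median of -0.04, which turned to 0.02 without nanoplastic 1. In TPM the split was 12 positive and 4 negative. At the unadjusted level 2 were higher and 0 lower. Hpd, an enzyme of tyrosine breakdown, averaged 29.8 ± 4.48 CPM without and 39.3 ± 3.55 CPM with nanoplastic (SD, n = 3 each), at an edgeR adjusted p of 0.501 and a log2 fold change of 0.39 (SE 0.11). Prodh2, an enzyme of hydroxyproline breakdown, measured 37.7, 34.7 and 42.3 CPM and 46.9, 48.1 and 43.9 CPM (log2 fold change 0.28, SE 0.08, edgeR adjusted p = 0.519). In both the groups did not overlap. The more abundant Aass, Aldh4a1 and Bckdha had log2 fold changes of -0.05, -0.07 and -0.06.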
